A study of Mus musculus with 2 samples.

Results

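The 8 genes described here make haemoglobin, start heme synthesis or encode the receptor for erythropoietin. They were chosen by name, with their differences between the 2 arrays already known: the α globin genes Hba-a1 and Hba-a2, the β globin genes Hbb-bt, Hbb-bs and Hbb-b1, the 5-aminolevulinate synthase genes Alas1 and Alas2, and Epor. Probes were tied to genes through the transcript accession that the array lists. This gave 11 probes (38 spots) for 7 of the 8 genes, out of 23462 genes on the array, and no probe was matched to Hbb-bs. Hba-a1, Hba-a2, Hbb-bt, Alas1 and Epor were measured on both arrays, and neither array showed Hbb-b1 or Alas2 well above background. None of the 38 spots carried an outlier flag.

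The cells were splenic CD8 T cells of C57BL/6 mice, prepared as naive (CD44 low, CD62L high) with an isolation kit and an antibody to CD44. Immobilized antibodies to TCR-β (3 µg/ml) and to CD28 (1 µg/ml) stimulated them for 2 days beside interleukin-2 (10 ng/ml). In those 2 days 1 culture had vehicle and 1 had prednisolone, a synthetic glucocorticoid, at 1 µM. Both then spent 3 days on a new plate with interleukin-2, and the labels name the hormone for the stimulation step only. Each condition has 1 array, both on 1 slide, and no replicate. No test between conditions was possible, and the spread between cultures is unknown.

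Values are processed signals, intensities that the scanner software had corrected for background, and log2 differences, prednisolone minus vehicle, after each array was scaled to its 75th percentile. The ± is the software's own error for both arrays and leaves out culture, labelling and hybridization. On each array 53.5% of spots were well above background. Scaling on the 8 spike-in probes in place of the percentile adds 0.24 to every log2 difference. Markers of the labelled cell type were bright: Cd8a had processed signals of 6030 (vehicle) and 6045 (prednisolone), Cd3e 28913 and 20844, and Thy1 84583 and 89342. Both arrays are of bulk RNA, in which more cells of a type and more RNA per cell cannot be told apart.

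Haemoglobin carries oxygen in red blood cells as a tetramer of α and β chains, each holding 1 heme. Heme is built from glycine and succinyl-CoA, and the first and rate-limiting step is made by ALAS1 in most cells and by ALAS2 in the erythroid lineage. Erythropoietin acts through its receptor and the kinase JAK2 to keep erythroid progenitors alive, with STAT5 as the main transcription factor downstream. Cells of any kind need heme for respiratory chain and other enzymes, whereas high globin levels are a mark of erythroid cells.

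The α globin transcripts were 15.7-fold (Hba-a1) and 16.1-fold (Hba-a2) higher with prednisolone, and every spot showed it. Hba-a1 (NM_008218) has 2 probes printed 10 times each. The spots of its brighter probe had processed signals of 82.0, 94.2 and 105 (lowest, median, highest) with vehicle and 1309, 1390 and 1568 with prednisolone. The spots of its dimmer probe had 16.1, 24.1 and 29.0 with vehicle and 342.9, 361 and 403.9 with prednisolone. The vehicle spots of the dimmer probe were near 12.8, the lowest vehicle signal called well above background. With that probe left out by a stricter filter, the log2 difference of Hba-a1 was 3.97. The 1 probe of Hba-a2 (NM_001083955), also printed 10 times, had 73.5, 82.8 and 93.8 with vehicle and 1225, 1322 and 1425 with prednisolone. All 10 spots of each probe were well above background on both arrays, and the lowest prednisolone spot was 11.8 to 13.1 times the highest vehicle spot. These spots repeat 1 labelled RNA per array, so they show the precision of the reading and not that of the culture.

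After scaling, the log2 difference was 3.97 ± 0.17 for Hba-a1 and 4.01 ± 0.21 for Hba-a2. Both probes of Hba-a1 gave 3.97, and spots at the same place on the 2 arrays differed by 3.89 to 4.09 for the brighter probe, 3.64 to 4.59 for the dimmer one and 3.76 to 4.22 for Hba-a2. Hba-a2 and Hba-a1 lay 0.04 ± 0.27 apart on the log2 scale, less than the software's error. The local background around these 30 spots was alike on both arrays, 27 to 35 with vehicle and 27 to 31 with prednisolone. These were the 2 members past 2-fold on the higher side, and Epor was the 1 on the lower side. Over the 13136 genes that had a value, 6.87% passed 2-fold on the higher side and 7.81% on the lower. Since the members were chosen for these values, nothing is read from their count. Among the 11969 genes measured on both arrays, 0.359% were at least 8-fold higher, with Hba-a2 ranked 16 and Hba-a1 17 from the top. The 2 differences shrank after another background correction, normexp, which adds 50 to every corrected signal: 2.79 for Hba-a1 and 3.23 for Hba-a2.

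**Figure D1:**
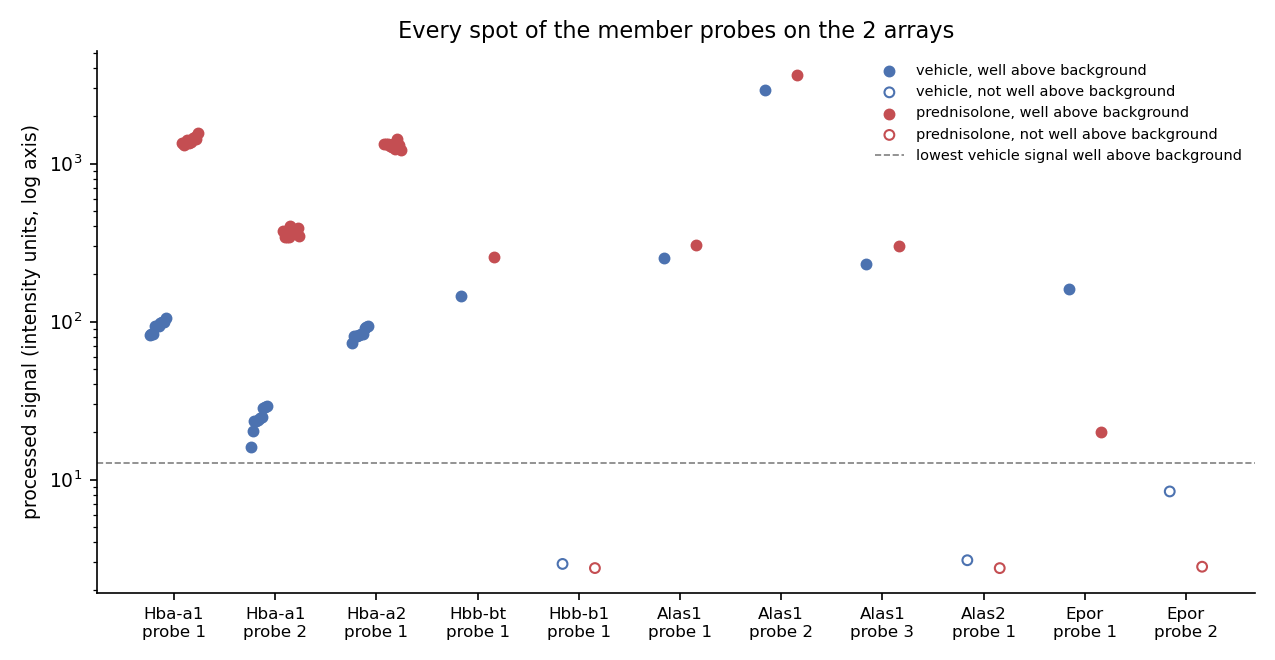
Processed signal of every spot of the 11 member probes on the vehicle array (blue) and the prednisolone array (red), on a log axis and before scaling. Filled points are well above background and open points are not; the 10 spots of each α globin probe form groups that do not overlap between arrays, while Hbb-b1 (2.93 and 2.75) and Alas2 (3.09 and 2.75) are open on both.

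Whether the 2 α globin genes are read apart here is not known. In the RefSeq promoter table (GRCm38.p6), the windows around their starts were identical at 297 of 297 shared positions, with an offset of 3 bases. The files give no probe sequences, so whether each probe sees 1 gene or both was not checked.

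The bases before the start are shown for 4 members, as the α globin gene and its β partner had unequal differences, the receptor gene the opposite sign, and the erythroid ALAS gene no measurable signal. Each is the 250 bases before the start, 5′ to 3′ on the gene's strand, from RefSeq in GRCm38.p6. Hba-a1 is at chr11:32283422-32283671 (+), Hbb-bt at chr7:103813924-103814173 (−), Epor at chr9:21963577-21963826 (−) and Alas2 at chrX:150547167-150547416 (+). Capitals mark matches on either strand to a short motif. The letters AGATAA and, as a variant, TGATAA stand for the site of GATA factors. The letters CACCC stand for the site of KLF factors. AGAACA is part of the site of the glucocorticoid receptor. TGACTCA is the site shared by NF-E2 and AP-1 factors.
Hba-a1: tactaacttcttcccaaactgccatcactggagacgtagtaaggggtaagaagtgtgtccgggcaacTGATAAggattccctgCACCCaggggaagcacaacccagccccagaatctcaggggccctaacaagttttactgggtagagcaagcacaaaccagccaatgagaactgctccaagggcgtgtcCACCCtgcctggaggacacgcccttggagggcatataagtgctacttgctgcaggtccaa
Hbb-bt: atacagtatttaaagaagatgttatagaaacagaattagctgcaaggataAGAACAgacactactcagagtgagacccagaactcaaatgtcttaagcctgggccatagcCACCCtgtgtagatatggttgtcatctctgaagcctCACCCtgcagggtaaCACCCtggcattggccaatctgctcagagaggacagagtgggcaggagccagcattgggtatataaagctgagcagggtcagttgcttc
Epor: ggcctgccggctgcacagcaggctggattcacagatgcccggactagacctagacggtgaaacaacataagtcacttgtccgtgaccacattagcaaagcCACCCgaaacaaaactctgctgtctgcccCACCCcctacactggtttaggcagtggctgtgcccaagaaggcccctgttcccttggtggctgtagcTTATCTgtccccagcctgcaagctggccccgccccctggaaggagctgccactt
Alas2: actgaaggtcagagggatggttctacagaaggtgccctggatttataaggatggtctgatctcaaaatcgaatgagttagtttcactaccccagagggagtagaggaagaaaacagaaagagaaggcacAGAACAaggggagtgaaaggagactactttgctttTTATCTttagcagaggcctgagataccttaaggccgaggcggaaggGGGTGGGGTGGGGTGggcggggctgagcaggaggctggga

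A GATA match (AGATAA or TGATAA) stood in 16.6% of the 32851 promoter windows of this length, and it was found before Hba-a1, Epor and Alas2 but not before Hbb-bt. In Hba-a1 it was TGATAA, 183 to 178 bases before the start, and in Epor it was AGATAA on the opposite strand, 54 to 49 bases before the start. CACCC was present in all 4, as in 52.0% of all windows, with 2 matches in Hba-a1, 3 in Hbb-bt, 2 in Epor and 3 in Alas2. AGAACA, in 16.1% of windows, was found before Hbb-bt and Alas2 and not in the windows of Hba-a1 or Epor. TGACTCA, in 4.46% of windows, was found in none of the 4. No match overlapped another motif. These are letter matches in a short window, and the distal enhancers that are known to drive globin genes lie outside it.

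Of the 3 β globin genes 1 had a value, and it was under 2-fold. Hbb-bt (NM_008220), the β globin gene t, has 1 spot, with a processed signal of 144.4 with vehicle and 255.6 with prednisolone. That is a log2 difference of 0.87 ± 0.21 (1.83-fold), rank 901 from the top. The fold of Hba-a1 was 8.56 times that of Hbb-bt, with a software error of 0.27 on the log2 scale. Hbb-bt passed 2-fold under spike-in scaling, at 1.11, and in no other setting tried. The 1 probe of Hbb-b1 had signals of 2.93 and 2.75, below detection on both arrays. Hbb-b1 belongs to another haplotype of the β globin locus than the one that C57BL/6 mice carry, which holds Hbb-bs and Hbb-bt. Hbb-bs, the other adult β globin gene of this strain, had no matched probe and so has no value of its own. Without probe sequences, whether the probe of Hbb-bt also sees Hbb-bs was not checked.

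In the list of 18 globin-related genes 4 had a value, and Hba-a1 and Hba-a2 were the 2 that passed 2-fold, both on the higher side. Over all genes with a value the shares were 6.87% higher and 7.81% lower. As Hba-a1 and Hba-a2 were chosen with their differences known, nothing is read from this count. Cygb, which encodes the widely expressed cytoglobin, had a log2 difference of −0.21 ± 0.29. The embryonic gene Hba-x had signals of 10.4 and 2.71, Hbb-bh1 12.2 and 12.6, the θ-like genes Hbq1a 2.60 and 2.40 and Hbq1b 2.59 and 4.32, none of them well above background. The median over the 4 measured genes was 2.42, set by the members themselves, against 0.0015 over all genes. Ahsp, the gene of the chaperone of free α globin, had no matched probe.

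**Figure D2:**
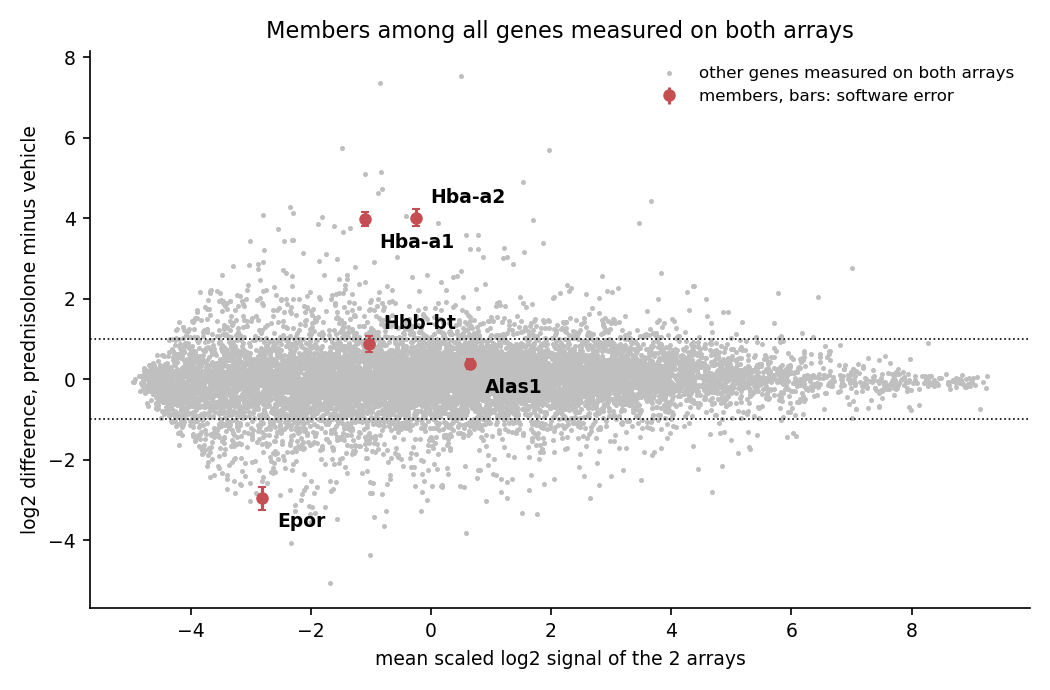
Log2 difference, prednisolone minus vehicle, against the mean scaled log2 signal of both arrays for the 11969 genes measured on both. Red points are the 5 measured members with the software's error as bars and dotted lines mark 2-fold; the α globin genes lie near 4, Hbb-bt and Alas1 within 2-fold, and Epor near −3.

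Alas1 (NM_020559 and NM_001291835), the gene of the ALAS enzyme of most tissues, was slightly higher with prednisolone in all 3 of its probes. The brightest probe had processed signals of 2913 with vehicle and 3614 with prednisolone, the second 251.7 and 304.3, and the third 231.1 and 303. The log2 differences of the probes were 0.36, 0.32 and 0.44, with a mean of 0.37 ± 0.12 (1.30-fold). No probe reached 2-fold, and Alas1 ranked 2790 from the top. Alas2, the erythroid isoform, had signals of 3.09 and 2.75 in its 1 probe, below the lowest signals called well above background on these arrays (12.8 and 11.7). Alas2 was thus not detectable on either array, as read by 1 spot.

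Along the heme pathway 13 of 14 genes were measured, and 1 passed 2-fold, on the higher side. The median difference was 0.35, against 0.0015 over all genes. Over all genes with a value, 6.87% passed 2-fold on the higher side and 7.81% on the lower. These shares stand beside the counts of every list below. Uros, the gene of uroporphyrinogen III synthase, was the higher one, with signals of 464.9 and 950.1 in its brighter probe and a log2 difference of 1.14 ± 0.15. It fell short of 2-fold after normexp, at 0.83, and with no filter on dim probes, at 0.94. Of the other enzymes, in pathway order, Alad was at 0.03, Urod at −0.31, Cpox at −0.50, Ppox at −0.19 and Fech, which inserts the iron, at 0.42, each with an error of 0.15 to 0.20. Urod, Cpox and Ppox thus lay below 0, although spike-in scaling puts Ppox above 0. Among carriers, the porphyrin transporter gene Abcb6 was 1.996-fold higher, just inside 2-fold, and the glycine carrier gene Slc25a38 1.75-fold higher. Tmem14c and Abcb10 of the same list were 1.47-fold and 1.04-fold higher. Under spike-in scaling 3 genes of the list were at least 2-fold higher.

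Genes that break down, move or sense heme went both ways. Of 16 genes 14 were measured, around a median of −0.24. Of these 1 passed 2-fold upwards and 2 downwards, beside shares over all genes of 6.87% and 7.81%. With so few genes nothing is read from these counts. Flvcr1, the gene of a transporter known as a heme exporter, had signals of 263.4 and 718.3, 2.82-fold higher with a log2 error of 0.20. Blvrb, the gene of biliverdin reductase B, had 640.9 and 171, a difference of −1.86 ± 0.21. Bach2, which encodes a repressor related to the heme sensor BACH1 and is well known in lymphocytes, had 717.3 and 173.8, 3.99-fold lower with a log2 error of 0.21. Bach1 was at −0.83 and Hmox1, the gene of inducible heme oxygenase, at −0.66, neither of them 2-fold apart. The kinase gene Eif2ak1, whose product is inhibited by heme, was at 0.43.

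Of 18 iron genes 13 were measured, and their median was 0.11. Of these 1 passed 2-fold upwards and 1 downwards, beside shares over all genes of 6.87% and 7.81%. Tfrc, the transferrin receptor through which most cells take up iron, had signals of 1265 and 3624 in its brighter probe. Its log2 difference was 1.44 ± 0.14 (2.71-fold), with both probes above 1. Tfr2, the second transferrin receptor, which in erythroid cells associates with the erythropoietin receptor, had 54.4 and 15.5, a difference of −1.76 ± 0.34. After normexp it was −0.55, and the stricter filter left it without a value, so its 2-fold call depends on the treatment of dim signals. The ferritin genes Fth1 (0.28) and Ftl1 (0.10) and the mitochondrial importer gene Slc25a37 (0.15) lay close to 0, and the iron-sulfur scaffold gene Iscu was 1.97-fold higher. Slc40a1, the gene of the iron exporter ferroportin, was not well above background (3.68 and 3.41).

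**Figure D3:**
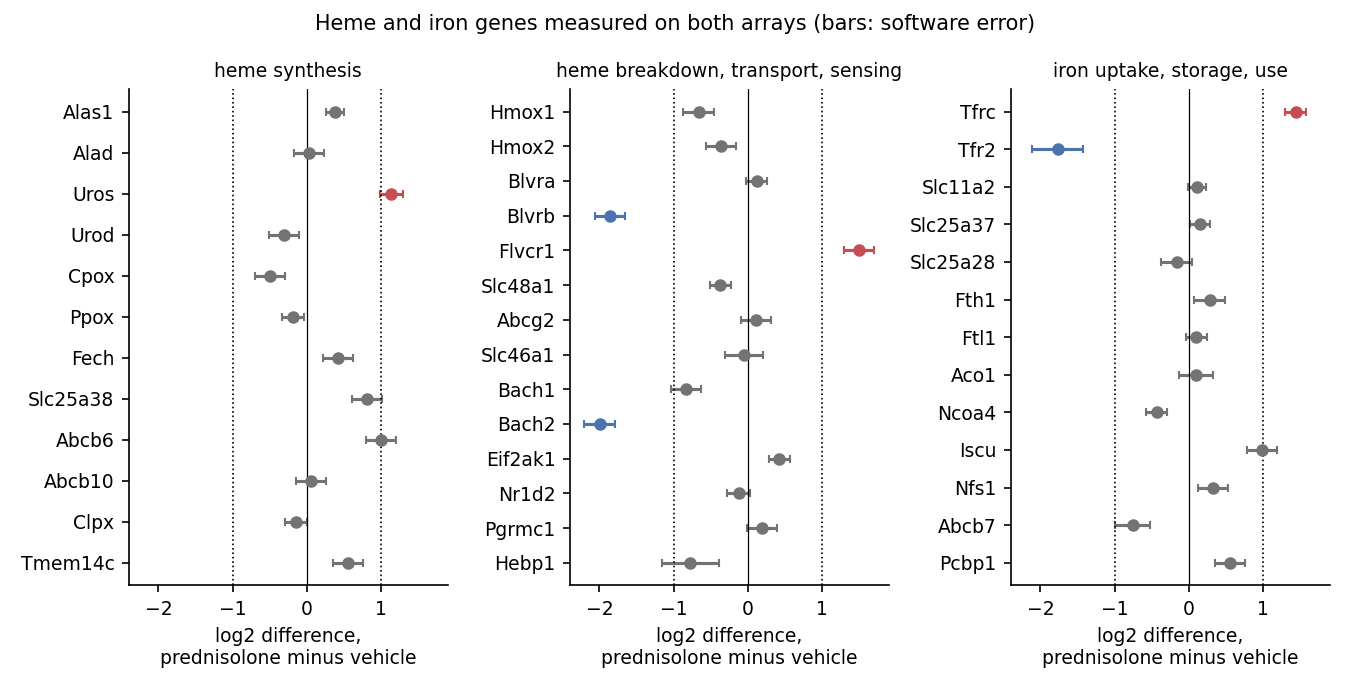
Log2 difference, prednisolone minus vehicle, of heme and iron genes measured on both arrays (not every gene is drawn), with the software's error as bars. Red points are at least 2-fold higher and blue points at least 2-fold lower (dotted lines); Uros, Flvcr1 and Tfrc lie on the higher side and Blvrb, Bach2 and Tfr2 on the lower side.

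Epor (NM_010149) was lower with prednisolone, opposite in sign to the α globins. Its brighter probe had a processed signal of 159.6 with vehicle and 19.9 with prednisolone, both well above background. The log2 difference was −2.95 ± 0.29 (7.75-fold lower), rank 24 from the lowest of 11969 genes, of which 1.15% were at least 4-fold lower. Its second probe had signals of 8.41 and 2.81 and was below detection on both, so the value rests on 1 spot. The prednisolone signal was close to the detection limit. After normexp the difference was −1.32, and with the second probe averaged in it was −2.24. A stricter filter, with signals at least 3 times the lowest well above background, left Epor without a value. Erythropoietin itself, Epo, had signals of 3.09 and 2.87, not well above background.

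Of 19 genes of receptor signalling 13 were measured, around a median of −0.12. Of these 2 passed 2-fold upwards and 2 downwards (Epor and Gata1), beside shares over all genes of 6.87% and 7.81%. Socs2, a feedback gene of STAT5, had signals of 817.1 and 3237, a log2 difference of 2.04 ± 0.20. Cish, another STAT5-induced brake, had 10161 and 19195 and was 1.96-fold higher. Kit, the stem cell factor receptor that acts with EPOR in erythroid progenitors, had 102 and 383.5, a difference of 1.96 ± 0.21. The kinase gene Jak2 was at −0.50, with probes at −0.79 and −0.21, and Stat5b at −0.64. The survival gene Bcl2l1 was at 0.16 and the phosphatase gene Ptpn6 at −0.02. The interleukin-2 receptor also signals through STAT5, and both cultures held interleukin-2. The part of either receptor in these differences was not tested.

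The erythroid transcription factors were led by large differences in both directions. Of 13 genes 7 were measured, and the median was −0.17. Of these 1 passed 2-fold upwards and 2 downwards, beside shares over all genes of 6.87% and 7.81%. Lyl1, a relative of Tal1, had signals of 323.1 and 2511, a log2 difference of 3.01 ± 0.20. Cbfa2t3, the gene of the corepressor ETO2, had 327.9 and 18.9, a difference of −4.07 ± 0.29. It was −2.23 after normexp and −2.06 with no filter on dim probes, and the stricter filter left it without a value. Gata1, the master regulator of the erythroid lineage, had 2049 and 793.4, a difference of −1.32 ± 0.20. Its cofactor gene Zfpm1 was at −0.70 and Ldb1 at −0.17, and Nfe2 was at 0.97 from dim signals of 30.4 and 57.6. Klf1 (7.18 and 9.01), Tal1 (3.00 and 2.85), Gata2, Lmo2, Gfi1b and Bcl11a were below detection on both arrays.

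**Figure D4:**
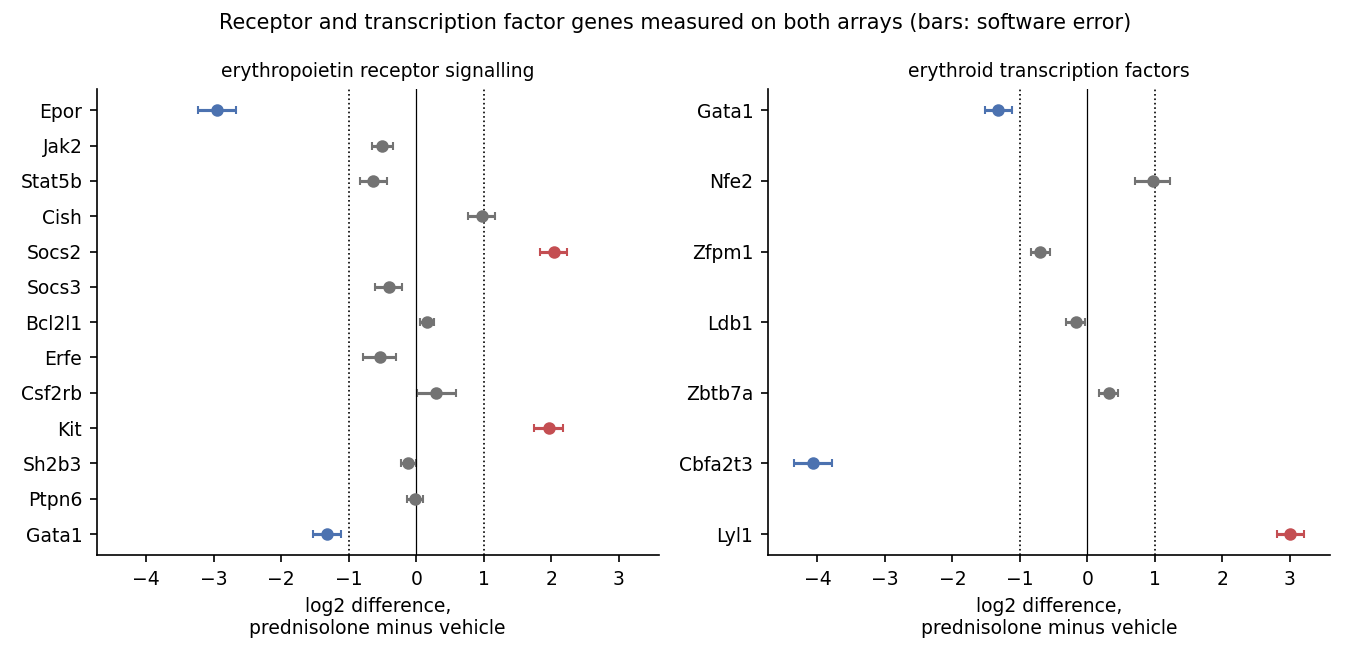
Log2 difference, prednisolone minus vehicle, of genes of erythropoietin receptor signalling (left) and erythroid transcription factors (right) that were measured on both arrays, with the software's error as bars. Epor, Gata1 and Cbfa2t3 lie beyond 2-fold on the lower side (blue) and Socs2, Kit and Lyl1 on the higher side (red).

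Markers of erythroid cells were set beside the α globin difference. Of 25 markers, 15 stayed below detection on both arrays, at signals of 2.68 to 11.3 with vehicle and 2.49 to 9.01 with prednisolone. Genes of red cell membrane proteins were among these: Slc4a1, the gene of the band 3 anion exchanger, had 8.89 and 6.19, and Epb42 had 2.70 and 2.49. The summed signal of the 15 was 79.2 with vehicle and 56.4 with prednisolone, before scaling. It is made of signals below detection, so no direction is read from it. Together with the 8 markers that had a value the sums were 10050 and 9213, most of it Epb41, which many cells express (7510 and 7946). Of the 8 markers with a value, Trim10 was at least 2.04-fold higher, from signals of 2.52 and 25.4, and Gata1 was lower. No marker passed 2-fold upwards without scaling, with the percentile taken over spots well above background, or after normexp. With no filter on dim probes 2 markers were higher and 3 lower. Xk had only spots with an outlier flag, with dim signals of 18.2 and 26.1, at 0.57 with those spots kept. The part of these markers in the α globin difference was not tested.

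Markers of other cells are given as whole lists. Over all genes with a value, 6.87% passed 2-fold upwards and 7.81% downwards. Of 12 platelet and megakaryocyte markers 10 were below detection, with sums of 113.6 and 84.2 over the list, and of the 2 measured ones neither passed 2-fold, with Gp1bb at −0.05. Of 10 myeloid markers 6 had a value and 2 passed 2-fold, both downwards, Cd68 at −2.22 and Cd74 at least 4.61-fold lower; the brightest, Itgam, was at 0.02, and the summed signals were 4454 and 3890. Of 10 neutrophil markers 4 had a value and 1 was higher, Cxcr2 at least 5.67-fold. Ly6g was at −0.56 and Elane at 0.11, and the summed neutrophil signals were 1442 and 1088. Of 10 B cell markers 3 had a value, none was higher and Vpreb3 was at least 17.4-fold lower, with Cd22 at −0.41. The summed B cell signals were 337.1 and 107. These sums leave out Cd79b, which had only spots with an outlier flag. Its signals were 1063 and 1623, brighter than the sums and higher with prednisolone, at 0.66 with those spots kept. Of 8 NK cell markers 7 had a value, of which 3 were higher and 1 lower. These were Gzma (2.77), Klra8 (at least 4.51-fold), Klra4 (at least 2.09-fold) and, lower, Eomes (−2.38). CD8 T cells also express Gzma and Eomes. The list of 12 CD8 T cell markers had a median of −0.38, no gene past 2-fold among the 10 measured, and Cd247 farthest from 0 at −0.95, with probes at −1.42 and −0.47. The part of these cells in the differences was not tested.

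**Figure D5:**
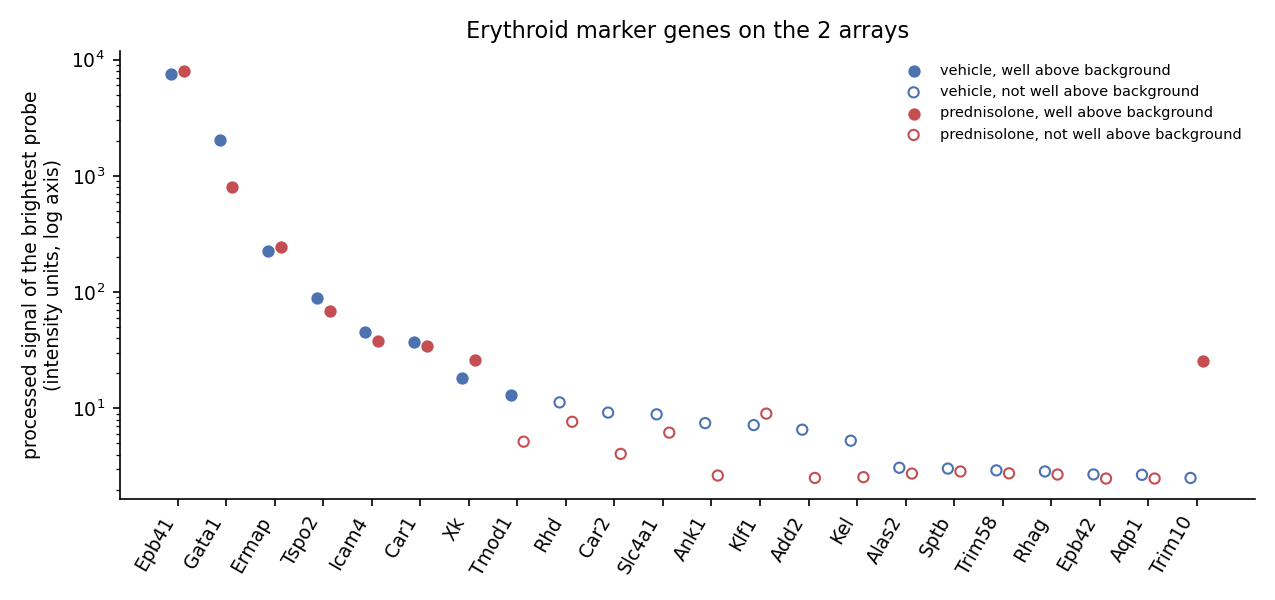
Processed signal, on a log axis and before scaling, of the brightest probe of erythroid marker genes (not every gene is drawn) on the vehicle (blue) and prednisolone (red) arrays. Filled points are well above background and open points are not; Slc4a1, Klf1 and Alas2 are open on both arrays, and Trim10 is filled with prednisolone only.

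With 2 arrays, likeness between genes is no more than a like log2 difference. The nearest named genes to Hba-a2 were Muc13 (4.02) and Me1 (4.05) above it, and those below Hba-a1 were Esm1 (3.96) and Prkar1b (3.87). The nearest to Epor were Adssl1 (−2.95) and Gsn (−2.95) above it, and Lman1l (−2.99) and Art4 (−3.01) below it.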

How the data were processed

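Agilent 1-colour (Cy3) arrays of total RNA were read, 1 with vehicle and 1 with prednisolone, from 100 ng RNA each per the labels. The deposited scanner files hold intensity values written by Agilent Feature Extraction 12.0.3.1, per the file headers; the processed signal is background-subtracted within the array and not scaled between arrays. The submitters' deposited table of intensity values is that signal times 0.792 (vehicle) or 0.858 (prednisolone), linear and not centred, with medians of 16.2 and 16.4; the choice of these constants is unknown. No column of per-sample values was left untied.

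Control spots were dropped, as was any spot flagged as an outlier on either array (4270 flagged with vehicle, 5291 with prednisolone). The log2 signal minus the array's 75th percentile (400.4 and 386.9) was averaged over the spots of a probe. Accessions without version were matched to RefSeq symbols (GRCm38.p6), which named 33767 of 56605 probes; the headers name mm9, so coordinates appear only with RefSeq sequences. Probes well above background on both arrays were averaged per gene (11969 genes), a probe counting as such when over 50% of its spots were. With 1 array above background a bound is given as "at least N-fold": the brightest probe is set against its own dimmer value or, if higher, the detection limit there (553 genes higher, 614 lower). The 8642 other genes with a usable probe have no value, and 1684 had only spots with a flag. The software's errors of probes were combined as independent. No test between conditions was possible, and the number of arrays limits the precision.

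The members, gene lists and 2-fold threshold were chosen with earlier results of these data known. Named are the members, their 2 neighbours on each side by difference, list genes past 2-fold (at most 3 per direction; without any, the one farthest from 0) and the 2 brightest markers per list; other enzymes, carriers and defining markers were named after their values were seen. Some genes that the rule or the lists include are not reported here. Scaling, background correction, flags, filters, probe choice and thresholds were varied. The variant with normexp (limma 3.58.1, R 4.3.3, offset 50) used the median signal of each spot, since the files hold no mean signal. Gene values were computed with Python 3.11.15, numpy 2.4.6 and pandas 2.3.3, and the procedure was tested on simulated data.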

Additional observations from a re-analysis of the deposited data

How the results depend on the processing

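The member genes at least 2-fold higher numbered 2 in the setting reported and 2 or 3 in the others, with Hbb-bt as the third. The 1 member at least 2-fold lower, Epor, became 0 under the stricter filter on dim probes and stayed 1 in the other settings. Over the 6 pathway lists, 63 genes had a value, of which 8 were at least 2-fold higher and 6 lower. These include the members Hba-a1, Hba-a2 and Epor, which were chosen with their differences known. Over all genes with a value the shares were 6.87% higher and 7.81% lower. The higher genes numbered 14 under spike-in scaling, 14 at a threshold of 1.5-fold and 4 at 4-fold. The lower genes numbered 3 with the stricter filter, 12 at 1.5-fold and 2 at 4-fold. Under the other settings these counts stayed within 1.5 times. No member with a value on both arrays changed sign: over the settings Hba-a1 ranged from 2.79 to 4.21, Hba-a2 from 3.23 to 4.25, Hbb-bt from 0.72 to 1.11, Alas1 from 0.32 to 0.61 and Epor from −3.01 to −1.32. The median of the erythroid markers went from −0.14 to 0.09 under spike-in scaling. Signals near background limit Epor, Tfr2, Cbfa2t3, Nfe2, Trim10 and the dimmer probe of Hba-a1. No paired analysis was possible because each group has 1 array.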

Other observations

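Several genes of the same pathways have no value in the report, as all their spots were flagged as outliers. With those spots kept, the glutaredoxin gene Glrx5, needed for iron-sulfur clusters in erythroid heme synthesis, had processed signals of 4004 and 6691, a log2 difference of 0.79. The ferrireductase gene Steap3 was at 0.40 and the iron regulatory gene Ireb2 at 0.07. In receptor signalling, Stat5a was at 0.09, Pim1 at 0.17 and Lyn at −0.43. The CD8 T cell markers Cd8b1 (42372 and 36267) and Cd3g (23678 and 12540) were bright on both arrays, at −0.17 and −0.87. The B cell marker Cd79b (1063 and 1623) was at 0.66. None of these genes was 2-fold apart.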
